A study of Mus musculus with 6 samples.

Results

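The interleukin-1 family and interleukin-6 were followed here as 10 genes, 5 cytokines (Il1a, Il1b, Il33, Il18 and Il6), the antagonist Il1rn and 4 receptors (Il1r1, Il1r2, Il1rl1 and Il6ra), of 31055 features counted. They were chosen by name, as listed cytokines and receptors, by a rule that used no measured value but with earlier results of these data known, and all 10 were found in the count tables. Mammary glands and tumors of female C3(1)-Tag mice were profiled by single-cell RNA sequencing (scRNAseq). In this line a transgene encoding the SV40 large T antigen gives rise to mammary tumors on the FVB/NJ background. All groups carry this transgene, so no group is a transgene-free control. There were 2 libraries per disease state, which were Prepuberty (whole gland at 5 weeks), DCIS (whole gland with ductal carcinoma in situ, at 14 weeks) and Tumor (palpable tumor, at over 18 weeks). The labels do not say whether the libraries of a state came from different animals, and the study's text calls them technical replicates when it counts cells but elsewhere speaks of separate specimens and of tumors that were molecularly different. The p-values below therefore measure the spread between libraries, which may be technical.

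The IL-1 cytokines are alarm signals. IL-1α (Il1a) and IL-1β (Il1b) bind the signalling receptor IL-1R1 (Il1r1), which acts through MyD88, IRAK kinases and NF-κB, while the receptor antagonist (Il1rn) and the decoy receptor IL-1R2 (Il1r2) limit that signal. IL-33 (Il33) is a nuclear cytokine released from damaged stromal and epithelial cells and is read by ST2 (Il1rl1), IL-18 (Il18) is matured by inflammasomes, and IL-6 (Il6), a typical product of IL-1 stimulation, acts through IL-6Rα (Il6ra) and the shared subunit gp130 on JAK kinases and STAT3. In mammary tissue these cytokines link macrophages and neutrophils to fibroblasts, vessels and epithelium.

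The 6 libraries kept 2545 to 4298 cells and 28487419 to 56923557 UMIs (unique molecular identifiers, 1 per captured transcript) after filtering. The median per cell ran from 6553 to 13628 UMIs and was highest in Tumor 2. Cells were clustered without the 10 genes and without the pathway genes described below, and each cluster was named only by other markers, so that "macrophage-like" means a cluster with those markers. UMIs were then summed per library and cell type and are given as CPM, the UMIs of a gene per 1000000 UMIs of those cells. The 4 types compared between states held 53 to 349 macrophage-like, 246 to 2093 fibroblast-like, 114 to 1959 epithelial-like and 32 to 701 endothelial-like cells per library. Between 9 and 39 cell barcodes were shared by any pair of libraries. The T antigen itself checks the labels: it had a UMI in 73.0% and 55.7% of epithelial-like cells in Tumor 1 and Tumor 2, and in 2.63% to 28.1% in the other libraries. It was also seen in 77 of 246 and 125 of 289 fibroblast-like cells of the tumors, against at most 0.622% of those in other libraries. The summed epithelial markers of the fibroblast-like cells were 179 to 658 CPM in Tumor and at most 88.8 CPM elsewhere. Each fibroblast-like result is therefore also given without the T-antigen cells where that changes it.

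The second tumor library stands apart from the first in several results below. By the study's methods, but not by its labels, it was made with a later kit version. The methods also name another dissociation for tumors than for glands, whereas the labels give the same protocol. Dissociation and animal therefore cannot be told apart from the Tumor state, nor the kit from the second tumor library, while the first shares its kit with the glands. The genes that respond to dissociation moved unevenly. In fibroblast-like cells their summed level over 14 genes was 1354 to 2669 CPM in Prepuberty, 2677 to 2684 CPM in DCIS and 2657 to 6113 CPM in Tumor, and in macrophage-like cells it was 1462 to 1477, 1600 to 2228 and 1860 to 4611 CPM. Between Tumor and DCIS, fibroblast-like cells had a higher Fosb (log2 fold change 3.19) and lower Hspa1b (-4.53) and Hsph1 (-3.09). The part of this response in the changes of the 10 genes was not tested.

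The members fell into 3 patterns of source. Il1a, Il1b, Il1rn and Il18 were highest in myeloid cells, Il1rl1 and Il33 in fibroblast-like cells, and Il6 in pericyte-like and smooth muscle-like cells, with endothelial-like and fibroblast-like cells next. Il1r1 was spread over the same stromal types, and Il1r2 was highest in neutrophil-like cells (488 and 1567 CPM), followed by dendritic-like cells (21.3 to 235 CPM over 4 libraries). Il6ra was at or below 97.6 CPM in every type, and that value rests on 3 UMIs. The plot of levels by type shows the order for each gene.

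**Figure D1:**
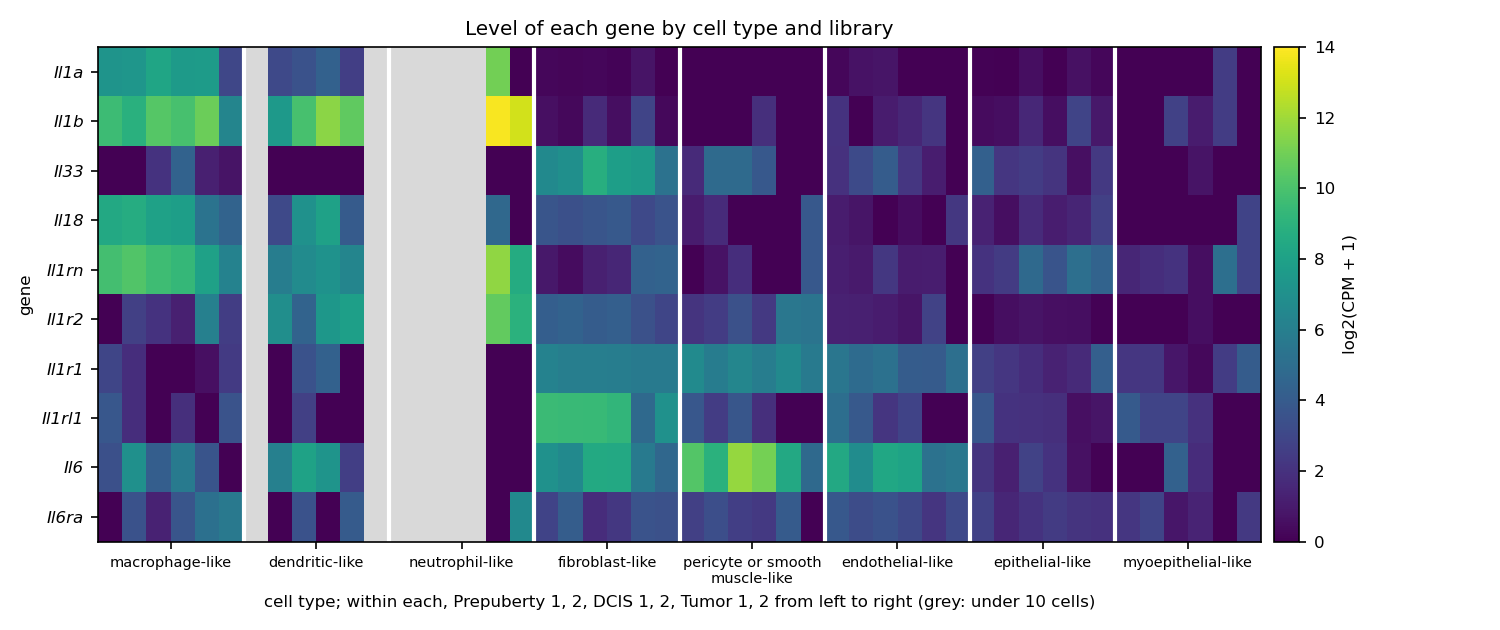
Levels of the 10 genes by cell type and library, from the CPM of the UMIs summed per library and type, on a log scale. Values are given for libraries with at least 10 cells of the type. The macrophage-like cells lead for Il18 with a median of 244.6 CPM, the fibroblast-like cells for Il1rl1 with 648.8 CPM, and the pericyte-like and smooth muscle-like cells for Il6 with 851.8 CPM.

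Il1b, the secreted inflammatory cytokine of the family, had its highest levels in neutrophil-like cells, which passed the minimum of 10 cells in the tumors only (46 and 31 cells). Its level there was 15130 CPM in Tumor 1 and 8299 CPM in Tumor 2. When each cell was thinned to 500 UMIs, 87.0% and 87.1% of these cells had an Il1b UMI, against 0.406% and 0% of fibroblast-like cells in the same tumors. Dendritic-like cells followed with 182 to 3054 CPM over 4 libraries and macrophage-like cells with 82.1 to 1860 CPM over 6, and these ranges overlap, so the order of the latter types is not set. In all other types but B cell-like cells Il1b stayed at or below 6.33 CPM.

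In macrophage-like cells the Il1b level was 782 CPM in Prepuberty 1 and 469 CPM in Prepuberty 2, then 1249 CPM in DCIS 1 and 968 CPM in DCIS 2, and 1860 CPM in Tumor 1 against 82.1 CPM in Tumor 2. Both DCIS libraries lay above both Prepuberty libraries, while the tumors held the highest and the lowest value of all 6. None of the 3 comparisons passed the threshold of 0.05 by edgeR's quasi-likelihood test with Benjamini-Hochberg adjustment over all genes. It gave log2 fold changes of 1.01 for DCIS against Prepuberty (adjusted p = 0.805), -0.54 ± 0.98 (SE) for Tumor against DCIS (0.788) and 0.47 for Tumor against Prepuberty (0.849). The tumors decided the direction. Without Tumor 1 the fall from DCIS was -4.52 (adjusted p = 0.000228), and without Tumor 2 the value was 0.39 (0.612). Il1a, the cell-associated form of IL-1, behaved alike, with 152 and 161 CPM in Prepuberty, 300.1 and 194 CPM in DCIS, and 206 and 6.90 CPM in the tumors. Its log2 fold change of Tumor against DCIS was -1.56 ± 0.98 (adjusted p = 0.368) and became -5.89 (9.1e-05) without Tumor 1. Neutrophil-like cells gave 2055 CPM of Il1a in Tumor 1 and 0 UMIs in Tumor 2.

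Il1rn, whose product binds IL-1R1 without signalling, was lower in macrophage-like cells of the tumors. Its level was 915 and 1195 CPM in Prepuberty 1 and 2, 793 and 631 CPM in DCIS 1 and 2, and 256 and 73.8 CPM in Tumor 1 and 2. Both tumors lay below all 4 glands. The log2 fold change was -2.52 ± 0.60 against DCIS (adjusted p = 0.0440) and -2.87 ± 0.61 against Prepuberty (adjusted p = 0.0227), and -0.35 between DCIS and Prepuberty, which was not called. The call against DCIS was near the threshold. It was lost without either Prepuberty library (adjusted p = 0.0697 without the first and 0.0715 without the second), either DCIS library (0.25 and 0.193), with only the 4 libraries compared (0.0508) or with thinned sums (0.0644), and that against Prepuberty without Prepuberty 1 (0.0909), Prepuberty 2 (0.129) or DCIS 2 (0.0513), while the log2 fold change stayed between -4.39 and -1.83 in every alternative run.

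Il18 showed the firmest change of the family. This cytokine, which is made as a precursor and cleaved by caspase-1, had a level in macrophage-like cells of 349 and 407 CPM in the Prepuberty libraries, 260 and 229 CPM in the DCIS libraries, and 39.8 and 20.7 CPM in the tumors. The 3 states did not overlap. On the log2 scale the fold change was -3.46 ± 0.47 for Tumor against DCIS (adjusted p = 0.00457) and -3.88 ± 0.48 for Tumor against Prepuberty (adjusted p = 0.00192), and both calls held in all 17 alternatives run. At 500 UMIs per cell, 9.43% to 20.4% of the macrophage-like cells in the glands had an Il18 UMI, against 2.01% and 0.735% in the tumors. The epithelial-like cells, deeper per cell, gave at most 0.305% by the same measure.

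The fall was also seen within a macrophage-like cluster, but not in an unnamed cluster with macrophage markers and low UMI numbers, whose Il18 was 6.90 to 130 CPM in the glands and 72.5 and 137 CPM in the tumors, on 5 and 3 UMIs. The tumors held clusters that the glands nearly lacked, such as one led by Mmp9, Acp5 and Ctsk with 24 and 19 cells, but the cluster led by Ms4a4c, H2-Ab1 and Ly6c2 was present in all 6 libraries. In that cluster Il18 stood at 419, 552, 479 and 476 CPM in the 4 glands and at 60.9 and 44.8 CPM in the tumors. Il1rn moved in the same direction there, from 1038, 1593, 1328 and 1171 CPM to 397 and 68.3 CPM. These values describe the cluster and were not tested.

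**Figure D2:**
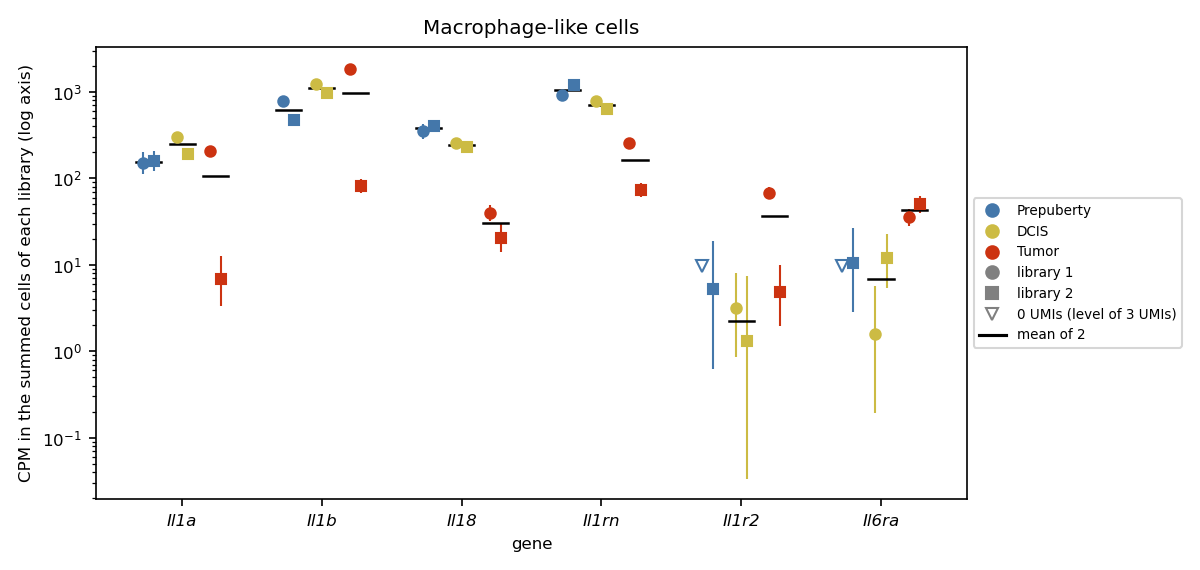
Levels of the members in macrophage-like cells by library, in CPM on a log axis, with 95% counting intervals and a bar at the mean of the 2 libraries of a state where both are above 0. Il18 and Il1rn fell in both tumors, to 39.8 and 20.7 CPM and to 256 and 73.8 CPM, whereas Il1b and Il1a were low in Tumor 2 alone.

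Of the 10 members, 7 passed the filter on low counts in macrophage-like cells. In Tumor against DCIS, 2 of them were lower and 0 higher, against 4.42% of the 7312 genes tested called in either direction (3.05% lower), and 4 of 7 did not overlap between the states, against 63.3% of all genes. In Tumor against Prepuberty, the same 2 genes were lower, against 4.36% of genes called (3.05% lower), and 3 of 7 did not overlap, against 51% of all genes. In DCIS against Prepuberty, 0 of 7 were called by edgeR or by DESeq2, and 0 had an unadjusted p below 0.05, where 0.109% of genes were called and 8.81% had such a p, while 4 of 7 did not overlap, against 44.4%. The median log2 fold change of the members was -1.56 in Tumor against DCIS, where that of all genes was 0.06.

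Fibroblast-like cells carried most of the transcripts of the IL-33 axis. Il1rl1, which encodes the membrane receptor ST2 and a soluble decoy form, had 94.1% to 98.5% of its UMIs in these cells in the glands, and 65.3% and 88.7% in the tumors. Its level was 733 and 719 CPM in Prepuberty 1 and 2, 702 and 595 CPM in DCIS 1 and 2, and 26.3 and 137 CPM in Tumor 1 and 2. The 4 glands lay close together and both tumors far below them. Their log2 fold change was -3.81 ± 0.64 against DCIS (adjusted p = 0.0141) and -3.74 ± 0.64 against Prepuberty (adjusted p = 0.0170). Leaving out a library of the gland state compared ended the call. Against DCIS the adjusted p became 0.0704 without DCIS 1 and 0.0973 without DCIS 2, and against Prepuberty 0.0675 and 0.0812 without Prepuberty 1 and 2. No other alternative did so, and the fold changes against DCIS ran from -5.17 to -3.19. At 500 UMIs per cell, 15.2% to 20.7% of fibroblast-like cells of the glands had an Il1rl1 UMI and 0.406% and 5.19% of those of the tumors, against at most 0.998% of epithelial-like cells in any library.

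The fall was seen among cells without T-antigen UMIs too, where Il1rl1 stood at 35.3 and 149.5 CPM in the tumors, and among those with such UMIs, at 12.1 and 125.7 CPM. By cluster the values varied. In the cluster led by Rarres2 and Cyp7b1, Il1rl1 was 666 and 450.1 CPM in Prepuberty, 572 and 280.2 CPM in DCIS, and 18.5 and 221 CPM in the tumors (66 and 104 cells), so that Tumor 2 lay near DCIS 2. In the cluster led by Gsta1 and Pi16 it was 659 to 1049 CPM in the glands and 160 and 7.60 CPM in the tumors (21 and 13 cells). In the cluster led by Ccl2, Gsta4 and Cxcl5, Il1rl1 was 1172 and 993 CPM in Prepuberty, 463 and 817 CPM in DCIS, and 3.42 and 126 CPM in the tumors (60 and 66 cells). In the cluster led by Crabp1, Col1a1 and Mfap4, which held 99 of the 246 and 106 of the 289 tumor cells, it was 236 and 262 CPM in Prepuberty, 1034 and 165 CPM in DCIS, and 23.1 and 85.1 CPM in the tumors. The part of the cluster makeup in the fall was not tested. Outside the fibroblast-like cells the receptor was seen in T cell-like cells, at 13.4 to 212 CPM over 5 libraries. The levels of 0.475 to 12.8 CPM in epithelial-like cells were 0.43% to 1.80% of the fibroblast-like level of the same library. Fibroblast markers there were at medians of 0.19% to 1.78% of theirs, and the part of background RNA was not tested. In endothelial-like cells, at 0 to 31.9 CPM, it was 0% to 4.35% of the fibroblast-like level, where fibroblast markers were at 0.06% to 4.03%.

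The gene lies at chr1:40429570-40465415 on the plus strand of GRCm38 and has 5 annotated coding transcripts that end at 5 different positions, from 40441407 to 40465415. The counts do not separate the soluble from the membrane form. RefSeq gives an upstream and a downstream start for this gene, and the 250 bases before each start are shown because they are the promoters of the member that was lower in fibroblast-like cells of Tumor than of either gland state. Letters in capitals mark a match to TTGCNNAA, the core of a C/EBP site, on either strand, which 9.56% of 32851 promoters of the same length hold.
Il1rl1 upstream start (chr1:40429320-40429569): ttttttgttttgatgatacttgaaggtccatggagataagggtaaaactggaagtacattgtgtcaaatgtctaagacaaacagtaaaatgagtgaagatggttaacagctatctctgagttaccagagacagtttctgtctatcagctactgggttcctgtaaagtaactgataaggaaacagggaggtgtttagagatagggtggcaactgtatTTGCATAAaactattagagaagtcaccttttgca
Il1rl1 downstream start (chr1:40439379-40439628): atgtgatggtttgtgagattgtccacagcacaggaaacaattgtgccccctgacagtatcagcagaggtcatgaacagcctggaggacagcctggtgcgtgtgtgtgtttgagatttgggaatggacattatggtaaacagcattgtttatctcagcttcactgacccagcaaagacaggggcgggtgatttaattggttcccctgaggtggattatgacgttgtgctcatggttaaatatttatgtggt
The match lies 34 to 27 bases before the upstream start, and the downstream window holds no match to this or to the 3 other motifs searched. A match is a description of the letters, not of a bound site.

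Il33, the ligand of ST2, was expressed by the same cells, which held 67.4% to 94.3% of its UMIs. Its level was 98.9 and 122 CPM in Prepuberty 1 and 2, 441 and 225 CPM in DCIS 1 and 2, and 197 and 37.8 CPM in Tumor 1 and 2. Both DCIS libraries were above all others, and Tumor 2 was the lowest of all. None of the comparisons passed the threshold, with log2 fold changes of 1.83 ± 0.80 for DCIS against Prepuberty (adjusted p = 0.498), -2.06 ± 0.80 for Tumor against DCIS (adjusted p = 0.123) and -0.23 ± 0.77 for Tumor against Prepuberty (adjusted p = 0.886). In Tumor against DCIS 4 of 17 alternatives gained a call, among them leaving out Tumor 1 (-4.09, adjusted p = 0.0111) and DESeq2 (-2.11, adjusted p = 0.0371), and in DCIS against Prepuberty 1 did, without the filter on low counts (1.77, adjusted p = 0.00715). The sign of Tumor against Prepuberty turned in 4 of 17 alternatives, among them 0.54 without Tumor 2 and 0.33 without the T-antigen cells. In the tumors Il33 was lower in fibroblast-like cells with T-antigen UMIs (82.8 and 7.07 CPM) than in those without (269 and 73.2 CPM) in both libraries.

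Il1r1, the signalling receptor of IL-1, varied little among fibroblast-like cells in unscaled CPM. Its level was 71.6 and 62.7 CPM in Prepuberty, 63.5 and 59.5 CPM in DCIS and 52.0 and 50.6 CPM in the tumors, with a log2 fold change of -0.94 ± 0.33 for Tumor against DCIS (adjusted p = 0.0945). The fitted change is larger than the ratio of these CPM values because the fit rescales libraries by TMM factors, which were 0.797 and 0.816 in the DCIS libraries and 1.13 and 1.51 in the tumors. The median over all genes of this comparison was 0.12. Pericyte-like and smooth muscle-like cells had 53.5 to 102 CPM and endothelial-like cells 15.4 to 43.3 CPM, so that the pericyte-like and fibroblast-like ranges overlap and both lie above the endothelial-like range. Il1r1 was 1.54 to 5.24 CPM in 5 epithelial-like sums and 18.0 CPM in Tumor 2, where the level was the same in cells with and without T-antigen UMIs (18.0 CPM each).

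Il1r2, the decoy receptor, was low in fibroblast-like cells and lower in those of the tumors, by a call that 10 of 17 alternatives lost. Its level was 17.4 and 20.04 CPM in Prepuberty, 16.01 and 18.1 CPM in DCIS and 10.0 and 6.51 CPM in the tumors. The tumors lay below all glands. The log2 fold change of Tumor against DCIS was -1.72 ± 0.42 (adjusted p = 0.0391), and the call was lost, among others, on leaving out Prepuberty 1 (adjusted p = 0.0598), Prepuberty 2 (0.0573), DCIS 1 (0.163), DCIS 2 (0.203) or Tumor 2 (0.116). Without the T-antigen cells the value was -0.89 (adjusted p = 0.150), and over the 17 alternatives it ran from -2.33 to -0.45. The cells with T-antigen UMIs had 1.73 and 0.393 CPM, and those without 15.2 and 13.6 CPM. Within the glands, the highest Il1r2 among fibroblast-like cells was in the small cluster led by Ccl21a and Ccl19, at 96.6 to 144 CPM in 4 libraries, which held no tumor cells. Neutrophil-like cells gave 1567 and 488 CPM of Il1r2, and macrophage-like cells 68.0 CPM in Tumor 1 against at most 5.19 CPM in the other 5 libraries.

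Il1rn changed in the opposite direction in fibroblast-like cells from that in macrophage-like cells. Its fibroblast-like level was 0.875 and 0.371 CPM in Prepuberty, 1.30 and 1.83 CPM in DCIS and 19.0 and 20.6 CPM in the tumors (57 and 98 UMIs). Both tumors lay above all glands. By edgeR's test the log2 fold change was 2.94 ± 0.58 for Tumor against DCIS (adjusted p = 0.0207) and 4.47 ± 0.60 for Tumor against Prepuberty (adjusted p = 0.00976). The call against DCIS was lost without DCIS 1 (0.149), DCIS 2 (0.150) or Tumor 2 (0.0636), and with clusters made without integration (2.16, adjusted p = 0.107), also when T-antigen cells were left out as well (2.11, adjusted p = 0.102), and that against Prepuberty without Prepuberty 2 (0.0582) and without integration (0.0555). Macrophage markers in fibroblast-like cells were at medians of 0.02% to 0.31% of their macrophage-like level, and the highest single marker of a library at 0.80% to 8.48%, whereas Il1rn in the tumors was at 7.42% and 27.9%. Il1b stayed at 0.21 to 6.33 CPM in these cells. Epithelial-like cells of the tumors had a mean of 27.3 CPM of Il1rn. Epithelial markers in the fibroblast-like cells were highest in Tumor, as given above. The part of macrophage or epithelial RNA in the fibroblast-like Il1rn was not tested. Il1rn was close in tumor fibroblast-like cells without T-antigen UMIs (18.5 and 16.3 CPM) and with them (19.8 and 24.4 CPM). By cluster, as a description, Tumor 1 was uneven. The cluster led by Ccl2, Gsta4 and Cxcl5 held 45 of the 57 UMIs, at 51.2 CPM in 60 cells. The clusters led by Rarres2, by Gsta1 and by Crabp1 had 3.08 CPM, 0 UMIs and 7.98 CPM there. For Tumor 2 the same clusters gave 25.3 CPM, then 24.6 CPM, 0 UMIs and 15.6 CPM.

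The difference between the cell types was tested in 1 model with the library as a block. The log2 fold change of Il1rn, Tumor against DCIS, was higher by 5.61 ± 0.68 in fibroblast-like than in macrophage-like cells (adjusted p = 0.00163), and 4.62% of 13658 genes were called in this test. It was lost only without DCIS 2 (6.19, adjusted p = 0.0511). Il1r2 (-4.60, adjusted p = 0.0231) and Il1rl1 (-5.49, adjusted p = 0.0361) also passed. The values in macrophage-like cells rest on at most 147 UMIs of Il1r2 and 16 UMIs of Il1rl1 in a library. The Il1r2 call was lost without DCIS 1 (adjusted p = 0.185), DCIS 2 (0.268) or Tumor 1 (0.197), and that of Il1rl1 without DCIS 1 (0.339) or DCIS 2 (0.176). Without the T-antigen cells neither passed, at -3.76 for Il1r2 (adjusted p = 0.0815) and -5.22 for Il1rl1 (0.0504). Without integration neither did, at -4.01 (0.0557) and 4.44 (0.715). Without Tumor 2, which holds those 16 UMIs, the Il1rl1 value turned to 1.53 (adjusted p = 1).

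**Figure D3:**
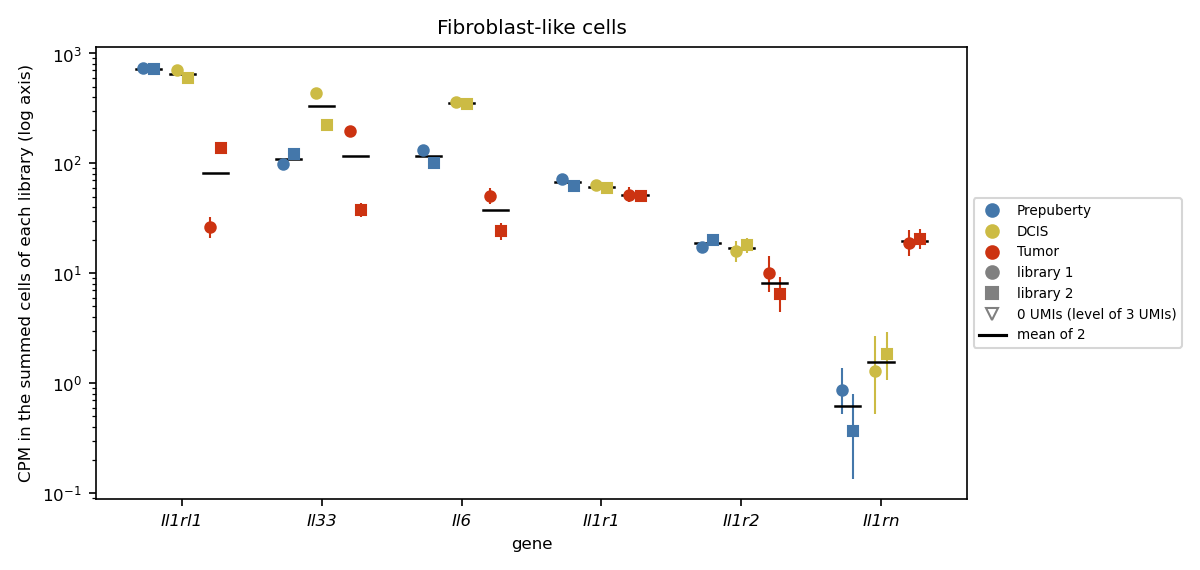
Levels of the members in fibroblast-like cells by library, in CPM on a log axis, with 95% counting intervals and a bar at the mean of the 2 libraries of a state where both are above 0. Il1rl1 and Il6 lie lower in both tumors than in all 4 glands, Il1rn lies higher (19.0 and 20.6 CPM against at most 1.83 CPM), and Il33 is highest in the DCIS libraries.

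Il6, the cytokine that IL-1 induces in stromal cells, was lower in fibroblast-like cells of the tumors. Its level was 133 and 101 CPM in Prepuberty 1 and 2, 362 and 345 CPM in DCIS 1 and 2, and 50.7 and 24.2 CPM in Tumor 1 and 2. The 3 states did not overlap, with DCIS the highest and Tumor the lowest. Against these spreads the log2 fold change was -3.86 ± 0.55 for Tumor against DCIS (adjusted p = 0.00983). It was -2.03 ± 0.51 for Tumor against Prepuberty, with an adjusted p of 0.05003, and 1.83 ± 0.50 for DCIS against Prepuberty, with an unadjusted p of 0.00696 and an adjusted p of 0.494, so neither was called. The call against DCIS was lost without DCIS 1 (adjusted p = 0.0547) or DCIS 2 (0.0836), and without integration and T-antigen cells together (-3.55, adjusted p = 0.0684). Against Prepuberty 6 of 17 alternatives gained a call, among them DESeq2 (-2.05, adjusted p = 0.00223) and leaving out Tumor 1 (-3.00, adjusted p = 0.0129). By cluster, as a description, the order of the gland states varied. In the small cluster led by Ccl21a and Ccl19, Il6 was 894 and 940.4 CPM in Prepuberty and 474 and 475 CPM in DCIS, and in the cluster led by Rarres2 and Cyp7b1 it was 122 and 139 CPM in Prepuberty and 684 and 525 CPM in DCIS. In the cluster led by Gsta1 and Pi16 the gland states overlapped, at 187 and 19.3 CPM and at 167 and 135 CPM.

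Of the 10 members, 9 passed the filter on low counts in fibroblast-like cells. In Tumor against DCIS, 1 was higher and 3 were lower, against 12.9% of 12081 genes called (7.56% higher and 5.38% lower), and 8 of 9 did not overlap, against 71.2% of all genes. In Tumor against Prepuberty, 1 was higher and 1 lower, against 8.63% of genes called (6.03% higher and 2.6% lower), and 5 of 9 did not overlap, against 54.6%. In DCIS against Prepuberty, 0 of 9 were called by edgeR and by DESeq2, 3 of 9 had an unadjusted p below 0.05 (Il6, Il1rn and Il6ra), and 0% of all genes were called and 10.1% had such a p, while 5 of 9 did not overlap, against 53.3%. In Tumor against DCIS, Il18 gave -1.16 ± 0.37 (adjusted p = 0.0734) and Il6ra 1.08 (adjusted p = 0.237), neither of them called.

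Pericyte-like and smooth muscle-like cells had the highest Il6 levels of the named types in the glands and in Tumor 1, but not in Tumor 2. They were 1219 and 485 CPM in Prepuberty 1 and 2, 3566 and 2134 CPM in DCIS 1 and 2, and 354.5 and 26.8 CPM in Tumor 1 and 2, where they rest on 46 and 2 UMIs in 28 and 11 cells. The DCIS libraries were above all others and the tumors below. No fit was made for this type, so the order is a description. At 500 UMIs per cell 66.0% and 34.4% of these cells had an Il6 UMI in DCIS, 29.5% and 16.4% in Prepuberty, and 14.3% and 0% in the tumors, where epithelial-like cells gave at most 0.381% in any library. Within the type, the cluster led by H2-M9, Rgs5 and Procr had 1482 and 398 CPM in Prepuberty and 5100 and 3770 CPM in DCIS, and the smooth muscle-like cluster led by Pcp4l1, Pln and Myh11 had 846 and 554 CPM and then 1240 and 848 CPM.

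In endothelial-like cells the Il6 level was 349 and 111 CPM in Prepuberty 1 and 2, 324 and 274 CPM in DCIS 1 and 2, and 37.8 and 45.2 CPM in Tumor 1 and 2. Both tumors lay below all glands. The log2 fold change was -3.26 ± 0.60 against DCIS (adjusted p = 0.0103) and -2.62 ± 0.59 against Prepuberty (adjusted p = 0.0221), but the tumor values rest on 32 and 12 UMIs. Leaving out Tumor 1 gave an adjusted p of 0.0722 against DCIS and 0.130 against Prepuberty, leaving out Tumor 2 gave 0.0586 and 0.102, and leaving out Prepuberty 1 gave a fold change of -1.43 against Prepuberty (0.0539). The state groups sit in different clusters: the cluster led by Ackr1, Selp and Vwf held 344, 213, 263 and 172 of the endothelial-like cells in the glands and 8 and 4 in the tumors. In the other, led by Gpihbp1 and Cldn5, Il6 was 418 and 124 CPM in Prepuberty, 258 and 280.0 CPM in DCIS and 31.5 and 46.7 CPM in the tumors, and the part of the cluster makeup was not tested. The endothelial-like level was 74.6% to 263% of the fibroblast-like level of the same library. Fibroblast markers stood there at 4.03% or less, and the part of background RNA was not tested.

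**Figure D4:**
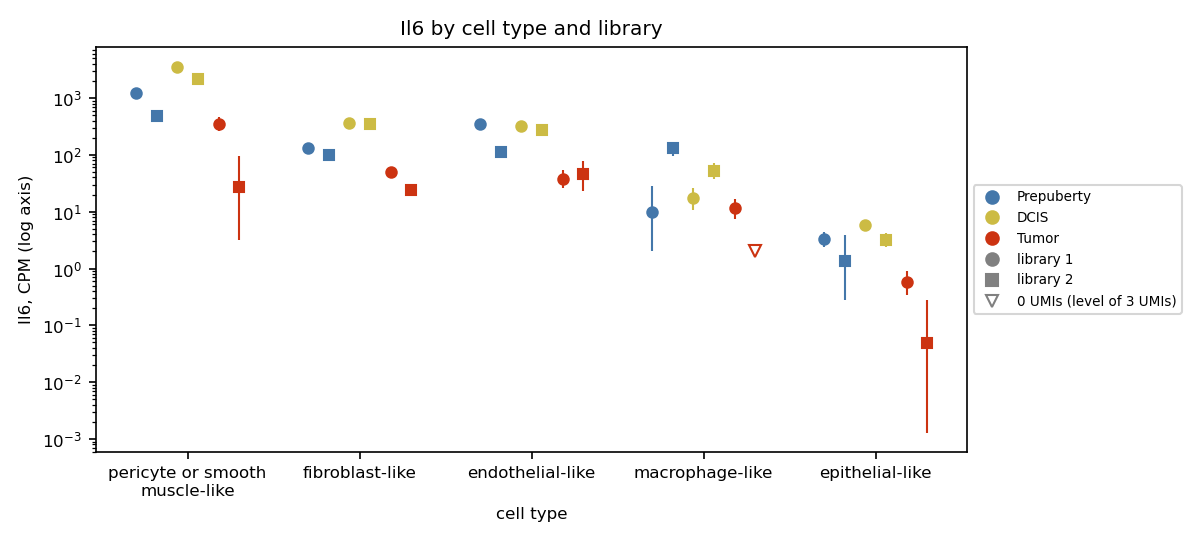
Il6 by cell type and library, among them pericyte-like and smooth muscle-like, endothelial-like, fibroblast-like and macrophage-like cells, in CPM on a log axis with 95% counting intervals. An open triangle marks 0 UMIs. In the pericyte-like, endothelial-like and fibroblast-like cells both tumors lie below all 4 glands.

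Of the 10 members, 5 passed the filter in endothelial-like cells. In Tumor against DCIS, 1 of 5 was lower (Il6), against 14.9% of 10561 genes called (7.11% lower), and 3 of 5 did not overlap, against 60.3% of all genes. In Tumor against Prepuberty, 2 of 5 were lower (Il6 and Il1rl1), against 12.5% called (5.22% lower), and 4 of 5 did not overlap, against 54.8%. Il1rl1 had 0 UMIs in both tumors and was at least 8.15-fold lower than in Prepuberty, set against a floor of 3 counts over both tumors. In the glands it stood at 0.51% to 4.35% of the fibroblast-like level there, beside the fibroblast markers given above, and the part of background RNA was not tested. In DCIS against Prepuberty, 0 of 5 were called by edgeR or DESeq2, 1 of 5 had an unadjusted p below 0.05, 0% of genes were called and 11.8% had such a p, and 1 of 5 did not overlap, against 56%. In macrophage-like cells Il6 rested on 0 to 50 UMIs, with 9.70 and 130 CPM in Prepuberty, 17.4 and 53.0 CPM in DCIS, and 11.6 CPM and 0 UMIs in the tumors (Tumor against Prepuberty -3.64 ± 1.15, adjusted p = 0.105). That value ran from -9.02 without Tumor 1 (adjusted p = 0.00505) to -0.92 without Prepuberty 2 (0.850), and 4 of 17 alternatives gained a call.

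The 250 bases before the start of Il6 are shown because its transcript was lower in the tumors in both stromal types fitted. The gene lies at chr5:30013114-30019981 on the plus strand of GRCm38. Capitals mark, from left to right, matches to TGANTCA (AP-1, held by 6.75% of 32851 promoters of this length), TTGCNNAA (C/EBP, 9.56%) and to GGGA and TTCC with any 2 bases between them (NF-κB, 1.21%), each searched on both strands.
Il6 (chr5:30012864-30013113): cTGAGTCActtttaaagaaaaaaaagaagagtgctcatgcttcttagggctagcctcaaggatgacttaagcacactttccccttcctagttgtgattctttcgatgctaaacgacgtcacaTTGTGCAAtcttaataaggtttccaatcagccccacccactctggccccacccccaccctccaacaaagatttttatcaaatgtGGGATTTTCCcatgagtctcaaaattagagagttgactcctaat
The matches begin 249, 128 and 44 bases before the start. Il6 was the only member with the NF-κB letters among 15 windows of the 10 genes. The AP-1 letters were in 3 of the 15 windows (Il1a, Il1rn and Il6), the C/EBP letters in 4 (Il1r1, Il1rl1, Il33 and Il6), and TTCNNNGAA, a STAT core that 7.02% of promoters hold, in 1 (Il1r2). All windows are RefSeq sequence of GRCm38.p6, which had all 10 genes.

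Il6ra, the binding subunit of the IL-6 receptor, was low in all types. In macrophage-like cells it was 0 UMIs and 10.4 CPM in Prepuberty, 1.58 and 11.9 CPM in DCIS and 35.6 and 50.3 CPM in the tumors (77 and 73 UMIs). Both tumors lay above all glands, but neither comparison was called, at 2.30 for Tumor against DCIS (adjusted p = 0.102) and 2.58 ± 0.92 for Tumor against Prepuberty (adjusted p = 0.148). In fibroblast-like cells it was 6.03 and 16.5 CPM in Prepuberty, 2.42 and 3.77 CPM in DCIS and 11 and 10.3 CPM in the tumors. The shared subunit Il6st was 52.1 to 123 CPM in those cells, and Il1rap, the accessory subunit of IL-1R1 and ST2, 5.13 to 18.3 CPM.

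Epithelial-like cells held only part of the tumor cells with T-antigen UMIs. Unnamed clusters led by Acan, by Atp6v1c2 and by Cenpe and Hmmr had such UMIs in 52.1%, 64.2% and 61.8% of their cells. They held 520, 509 and 97 cells of Tumor 1 and 353, 290 and 80 of Tumor 2, and are left out here. Within the epithelial-like cells the member with the clearest pattern was Il1rn. Its level was 3.19 and 4.46 CPM in Prepuberty, 26.1 and 11.3 CPM in DCIS and 34.0 and 20.6 CPM in the tumors, with 424, 176, 1073 and 414 UMIs in the last 4. Every DCIS and Tumor library lay above both Prepuberty libraries. Log2 fold changes were 2.65 ± 0.56 for Tumor against Prepuberty (adjusted p = 0.0423), 2.45 ± 0.56 for DCIS against Prepuberty (unadjusted p = 0.00278, adjusted p = 0.238) and 0.20 ± 0.49 for Tumor against DCIS (adjusted p = 0.830). The call was lost without Prepuberty 1 (adjusted p = 0.243), Prepuberty 2 (0.169), DCIS 1 (0.0654) or DCIS 2 (0.0640), or with only the 4 libraries compared (0.0637). Prepuberty 2 had 114 epithelial-like cells. The level was alike in cells without and with T-antigen UMIs, at 23.3 and 29.9 CPM in DCIS 1, 11.1 and 12.1 CPM in DCIS 2, 30.6 and 34.6 CPM in Tumor 1, and 20.9 and 20.4 CPM in Tumor 2. It was 13.3% and 27.9% of the macrophage-like level in the tumors, where the highest macrophage marker of a library was at 1.75% to 4.49% in epithelial-like cells.

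The change of Il1rn from DCIS to Tumor was higher in epithelial-like than in macrophage-like cells by 2.90 (adjusted p = 0.0234), and lower than in fibroblast-like cells by 2.72 (adjusted p = 0.0238). These tests called 2.6% and 7.98% of 13658 genes. The former was lost without DCIS 1 (adjusted p = 0.0995) or DCIS 2 (0.300) and the latter likewise (0.277 and 0.105), and both without integration (0.0723 and 0.158). The signed change of Il18 was higher by 3.91 in epithelial-like cells (0.54 ± 0.73 on its own, adjusted p = 0.686) than in macrophage-like cells, where it was -3.46 (adjusted p of the difference 0.0149). The epithelial-like levels were 0.446 to 5.22 CPM, and this call also ended without DCIS 1 (0.0917) or DCIS 2 (0.232).

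Of the 10 members, 8 passed the filter in epithelial-like cells. In Tumor against Prepuberty, 1 was higher (Il1rn) and 1 lower (Il1rl1, at the low levels given above), against 5.84% of 13331 genes called (2.76% higher and 3.08% lower), and 5 of 8 did not overlap, against 56.2% of all genes. The Il1rl1 call (-4.13, adjusted p = 0.0334 by edgeR) was lost in 6 of 14 alternatives, with values from -4.83 to -1.15. In Tumor against DCIS, 0 of 8 were called by edgeR and 2 by DESeq2, 2 had an unadjusted p below 0.05, 1.1% of genes were called and 24.1% had such a p, and 2 of 8 did not overlap, against 59.5%. In DCIS against Prepuberty, 0 of 8 were called by edgeR and 1 by DESeq2 (Il1rn), 1 had an unadjusted p below 0.05, 0% of genes were called and 13.2% had such a p, and 4 of 8 did not overlap, against 55.6%.

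The share of each member's UMIs by source shifted with these levels and with the cell numbers of each library. Macrophage-like cells held 38.1% to 57.8% of the Il1rn UMIs in the glands and 22.5% and 12.4% in the tumors, while epithelial-like cells held 1.3% to 23.2% and then 43.6% and 48.0%. Neutrophil-like cells held 10.4% of the Il1b UMIs in Tumor 1 and 45.7% in Tumor 2. For Il6, pericyte-like and smooth muscle-like cells held 18.6% to 31.4% in the glands and 15.5% and 1.5% in the tumors. These shares follow how many cells of a type were captured and are not a measure of level.

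**Figure D5:**
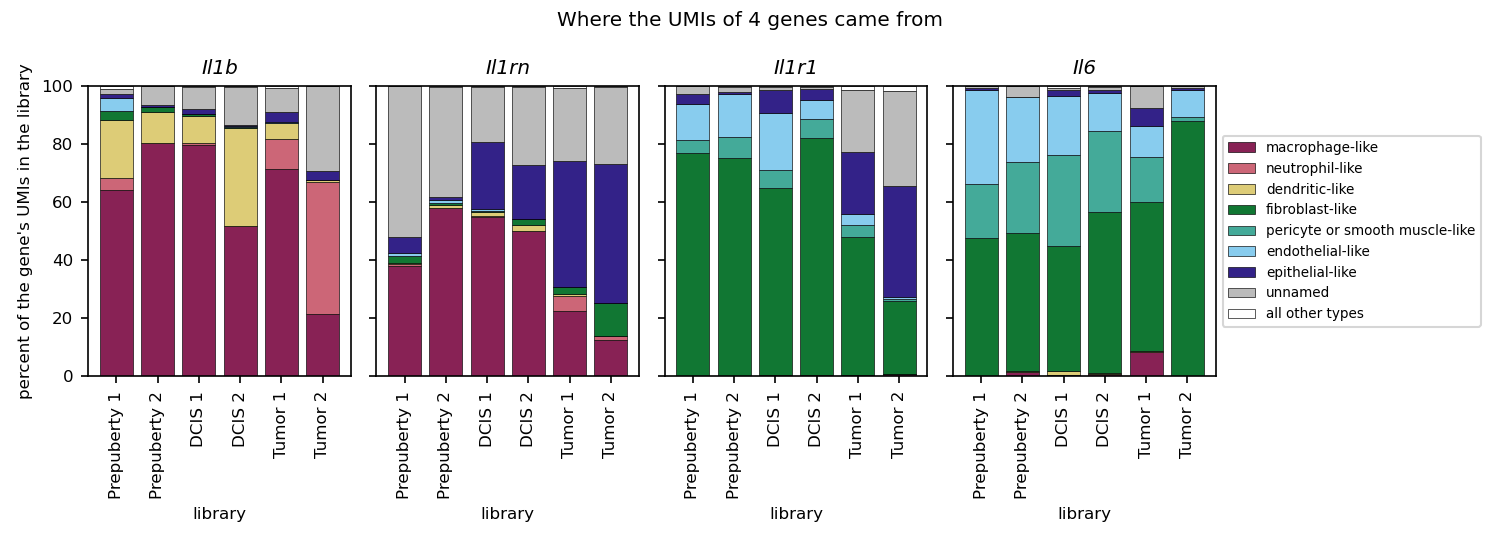
Share of a member's UMIs, in percent, that came from each cell type in each library, as stacked bars that sum to 100. The epithelial-like part of Il1rn grows from 1.3% in Prepuberty 2 to 48.0% in Tumor 2.

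The genes around the members were read from lists of the pathway, described by counts and with no test of a list. Of 20 known targets of IL-1 and IL-6, all measured in fibroblast-like cells, 12 were lower and 0 higher in Tumor against DCIS, with a median log2 fold change of -3.45, where 5.38% of all genes were lower and the median was 0.12. Csf3, which encodes the neutrophil growth factor G-CSF, was 84.1 and 138 CPM in Prepuberty, 110 and 227 CPM in DCIS and 0.333 and 0.420 CPM in the tumors (-9.45 ± 0.69, adjusted p = 0.00514). Saa3, an acute-phase gene, was 5296 and 4505 CPM, then 2125 and 6991 CPM, then 9.67 and 29.0 CPM (-8.64 ± 0.84, adjusted p = 0.00626). For both genes the tumors lay far below all glands. The next largest falls were those of Csf2 (-7.67), Cxcl5 (-5.03) and Cxcl1 (-4.14), which encode a myeloid growth factor and neutrophil chemokines. In Tumor against Prepuberty, 6 were lower and 1 higher, where 2.6% and 6.03% of all genes were, and the median was -2.07, against 0.02 for all genes. The higher one was Ptgs2 (1.71), the inducible prostaglandin synthase, and the largest falls were those of Csf3 (-8.61), Saa3 (-8.52), Csf2 (-7.14), Cxcl5 (-6.16) and Icam1 (-2.39). None was called in DCIS against Prepuberty, where 2 of 20 had an unadjusted p below 0.05, as had 10.1% of all genes.

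In endothelial-like cells 12 of the 18 targets tested were lower in Tumor against DCIS and 12 in Tumor against Prepuberty, where 7.11% and 5.22% of all genes were lower, and none was higher. Their medians were -3.38 and -2.81, against -0.02 for all genes in both. As given above, the tumors nearly lacked the cluster led by Ackr1, Selp and Vwf, and its part in these falls was not tested. Among them were the adhesion receptor Vcam1 (217 CPM in DCIS against 4.72 CPM in Tumor, -5.37 ± 1.00, adjusted p = 0.0106) and the monocyte chemokines Ccl2 (-4.98) and Ccl7 (-4.83). In macrophage-like cells 3 of 18 were lower in Tumor against DCIS (Cxcl5, Saa3 and Mmp3) and 6 in Tumor against Prepuberty, with 3.05% of all genes lower in each. In epithelial-like cells 3 of 19 (Saa3, Icam1 and Mmp3) and 7 were lower, with 0.78% and 3.08% of all genes. Saa3, Cxcl5 and Mmp3 are abundant in fibroblast-like cells, and the part of background RNA in their falls in other types was not tested.

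Most signalling genes were not called. Of 17 genes of IL-1 receptor signalling in fibroblast-like cells, 3 were lower in Tumor against DCIS and 0 higher, where 5.38% and 7.56% of all genes were, namely Irak3, the inhibitory IRAK (-3.44 ± 0.42, adjusted p = 0.00805), Ikbkg (-1.99) and Map3k8 (-1.63). Irak3 stood at 34.7 and 65.0 CPM in Prepuberty, 51.9 and 54.2 CPM in DCIS and 7.67 and 8.20 CPM in the tumors, so that the tumors lay below all glands. Irak3 was also lower in Tumor against Prepuberty in fibroblast-like (-3.10), endothelial-like (-2.66), macrophage-like (-2.07) and epithelial-like cells (-2.75). In the endothelial-like cells 2 of 17 were lower in Tumor against DCIS (Map3k8 and Irak2), against 7.11% of all genes. In macrophage-like and epithelial-like cells 0 of 14 and 0 of 17 were called by edgeR, with 5 and 6 at an unadjusted p below 0.05, which 23.7% and 24.1% of all genes had.

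Of 9 other ligands of the IL-6 family, 5 were tested in fibroblast-like cells. Lif, a cytokine that acts through gp130, was lower in Tumor against DCIS (-2.87, adjusted p = 0.0194), as were 5.38% of all genes. In another comparison, Tumor against Prepuberty, Il11 was higher (2.75 ± 0.57, adjusted p = 0.0298), as were 6.03% of all genes. Il11 was 16.8 and 7.05 CPM in Prepuberty, 49.1 and 22.5 CPM in DCIS and 111 and 112 CPM in the tumors. Of 8 receptor genes, 3 were lower in Tumor against DCIS, against 5.38% of all genes, which were Il27ra (-5.02), Lifr (-1.92) and Osmr (-1.31). In endothelial-like cells Lifr (-2.11), Osmr (-1.58) and the transducer Stat3 (-1.35 ± 0.27, adjusted p = 0.0130) were lower in the same comparison, as were 7.11% of all genes. Jak2, the kinase of cytokine receptors, was lower in fibroblast-like cells in both (-2.09 and -2.03).

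Of 12 inflammasome and processing genes, 7 were tested in fibroblast-like, 7 in endothelial-like and 6 in epithelial-like cells. Casp4, the caspase that senses endotoxin, was the 1 gene lower in Tumor against DCIS in each (-2.57, -1.96 and -2.12), where 5.38%, 7.11% and 0.78% of all genes were lower. Pycard, the inflammasome adaptor, was higher in endothelial-like cells (1.95, adjusted p = 0.0332). Casp1, which cleaves the precursors of IL-1β and IL-18, was lower in macrophage-like cells of Tumor than of Prepuberty (-1.96 ± 0.41, adjusted p = 0.0201), at 129 and 166 CPM in Prepuberty, 54.5 and 78.3 CPM in DCIS and 53.2 and 37.9 CPM in the tumors. The glands of Prepuberty lay above the other 4 libraries. Of the 7 further receptors of the IL-1 family 6 were tested in fibroblast-like cells. Il1rl2, the IL-36 receptor (-2.24), and Il18bp, the IL-18 binding protein (-1.57), were lower there in Tumor against DCIS, as were 5.38% of all genes. Il18bp was also lower in endothelial-like cells, at -3.30, as 1 of 4 tested. Of the 5 further ligands, Il1f9, an IL-36 cytokine, was the only one tested in macrophage-like cells and was lower in Tumor against DCIS (-5.26, adjusted p = 0.0234), with 1 UMI against 23.

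The genes whose levels ran most alike to those of a member were read from Pearson's r of log2(CPM + 1) over 53 sums of a library and type with at least 20 cells. These sums share libraries, and the values are a description. Il1b ran closest with Mcemp1 (0.969), Plbd1 (0.935) and Gm21188 (0.929), and Il1rn with Il1b (0.893), Clec4e (0.876) and Ptafr (0.868). Il6 ran closest with Procr (0.913), Hotairm1 (0.838) and Lpl (0.798). For Il33 the nearest were Podn (0.84), Vegfd (0.834) and Clec3b (0.828), for Il1rl1 Mmp3 (0.786), Abi3bp (0.749) and Penk (0.73), and for Il1r1 Meis2 (0.824), Pdia5 (0.814) and Ddr2 (0.807). Il1a had F10 (0.881), Hal (0.876) and Gm13391 (0.873), Il18 had Npc2 (0.755), Rilpl2 (0.726) and M6pr (0.715), and Il1r2 had Cd80 (0.725), Glipr2 (0.681) and Pim1 (0.65). The weakest were those of Il6ra, which were Pnpla7 (0.601), Klhdc4 (0.576) and Atg4a (0.575).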

How the data were processed

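Single-cell RNA was counted in 6 libraries. Per the file headers and the submitters' notes, the authors counted UMIs per gene and cell with Cell Ranger 3.0.2, with the T antigen among the features, and mm10 is the build named. The deposited matrices hold raw counts. Cells with at least 200 genes and a mitochondrial share below 10% were kept, after Scrublet (scanpy 1.11.5) scores had marked doublets, the highest 2.33% to 3.87% of a library. Its automatic threshold marked 31 cells and was not used. This kept 21505 of 23835 barcodes. Clustering followed integration of the libraries in Seurat 5.3.0 under R 4.3.3 (2000 variable genes, 20 components, resolution 0.8), without the 97 genes of the members and pathway lists, and CD45-rich clusters were clustered again. A cluster was named where 3 or more of a type's markers had a UMI in 25% of its cells and a mean 2 or more times that in all others, and 7 of 37 clusters stayed unnamed (2830 cells).

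Counts were summed per library and type (at least 10 cells) and tested with edgeR 4.0.16 (quasi-likelihood F test, TMM, filterByExpr, all 3 states in 1 model, two-sided, Benjamini-Hochberg over all genes tested, threshold 0.05). Differences between types were tested in 1 model with the library as a block. The fits were tested on simulated data. Alternatives were DESeq2 1.42.0, RLE factors in edgeR, no filter, only the 4 libraries compared, a replicate block, each library left out, thinned sums, other limits on cells, no integration and no T-antigen cells. 2 were added after seeing the data: the low-UMI cluster counted as macrophage-like, and no integration together with no T-antigen cells. Counting intervals (95%, exact Poisson) and floors of 3 counts cover counting error only. All 10 members are named. Of each list at most 5 genes that passed are named, those of the largest change, except for what is not reported here, and for likeness the 3 highest correlations among genes with at least 20 CPM in a sum. The members and lists were chosen with earlier results of these data known.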

Additional observations from a re-analysis of the deposited data

Results flagged for a closer look

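There were 8 changes from DCIS to Tumor that differed between cell types by an interaction test, as log2 differences of the change. In fibroblast-like against macrophage-like cells they were 5.61 for Il1rn, -4.60 for Il1r2 and -5.49 for Il1rl1. In epithelial-like against macrophage-like cells they were 2.55 for Il1b, 2.90 for Il1rn, -4.96 for Il1r2 and 3.91 for Il18, and in epithelial-like against fibroblast-like cells -2.72 for Il1rn. The tests, in this order, called 4.62%, 2.6% and 7.98% of 13658 genes. The Il1b value (adjusted p = 0.0471 by edgeR's quasi-likelihood test) sets 1.91 and 0.45 CPM in DCIS and 6.33 and 0.846 CPM in Tumor of epithelial-like cells against the macrophage-like levels above. Of the 17 epithelial-like UMIs in Tumor 2, 15 lay in 1 cell of a cluster of 206. The epithelial-like level was 0.34% and 1.03% of the macrophage-like one in the tumors, where the highest macrophage marker stood at 4.49% and 1.75%. It was lost without Prepuberty 1 (adjusted p = 0.0631), Prepuberty 2 (0.0646), DCIS 1 (0.0917) or DCIS 2 (0.366), and without integration (0.0821). The Il1r2 value of epithelial-like against macrophage-like cells (adjusted p = 0.0415) rests on at most 0.676 CPM in epithelial-like cells and was lost in 7 of 9 alternatives.

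Members were also high in clusters that no comparison used. An unnamed cluster of 57 cells led by Sfrp5, Lypd2 and Igfbp6 had 1964 CPM of Il33 over all its cells, with 541 and 407 CPM in the Prepuberty libraries and 4429 CPM in DCIS 2, and held no tumor cells. An unnamed cluster of 245 CD45-rich cells led by Ccl4, Ccl3 and Gm13822, with a median of 2522 UMIs per cell, had 1872 CPM of Il1rn and 1276 CPM of Il1b. Its Il1b was 48.3 and 178 CPM in Prepuberty, 530 and 1382 CPM in DCIS and 6036 and 7339 CPM in the tumors (26 and 19 cells), and its Il1rn was 2649 and 3564, 1217 and 1944, and 856 and 1140 CPM. Added to the macrophage-like cells, this cluster left Il18 and Il1rn called in both comparisons with Tumor.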

How the results depend on the processing

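Only the Il18 falls in macrophage-like cells passed in all 17 alternatives. Of 318 alternative values for 23 member calls, 236 kept the call, 80 lost it and 2 turned in sign. Of 120 levels, 105 moved by less than 1 SD. For the pathway genes called, 1675 of 2137 alternative values kept the call, 462 lost it and 0 turned. With 2 libraries a state, leaving 1 out decides many calls. Levels below about 10 CPM, the tumor values of endothelial-like and pericyte-like cells, and Il6 and Il1rl1 in macrophage-like cells rest on few UMIs.

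The numbers of members called in Tumor against DCIS changed as follows. Macrophage-like cells had 2, then 7 without the filter on low counts, 1 with only the 4 libraries compared, 1 with thinned sums and 1 to 5 without a library. Fibroblast-like cells had 4, then 7 by DESeq2, 2 without integration, 1 without integration and T-antigen cells, and 0 to 5 without a library. Epithelial-like cells had 0, then 2 by DESeq2, 3 without the filter and 0 to 2 without a library, and endothelial-like cells 1, then 3 without the filter and 0 to 2 without a library. In Tumor against Prepuberty, macrophage-like cells had 2, then 5 without the filter, 4 without integration, 4 with the low-UMI cluster added and 1 to 5 without a library. Fibroblast-like cells had 2, then 4 by DESeq2, 4 without the filter, 4 with the replicate block, 1 without integration and 0 to 5 without a library. Epithelial-like cells had 2, then 4 by DESeq2, 5 without the filter, 0 with only the 4 libraries compared, 1 with thinned sums, 1 without integration and 0 to 4 without a library, and endothelial-like cells 2, then 1 with thinned sums and 0 to 2 without a library. In DCIS against Prepuberty, none was called, but 2 in fibroblast-like, 1 in epithelial-like and 1 in endothelial-like cells without the filter, and 1 in epithelial-like cells by DESeq2. Differences between types numbered 3 in fibroblast-like against macrophage-like cells, then 1 without integration, 1 without T-antigen cells and 0 to 4 without a library. In epithelial-like against macrophage-like cells they numbered 4, then 7 without the filter, 1 without integration and 0 to 5 without a library, and in epithelial-like against fibroblast-like cells 1, then 4 without the filter and 0 to 4 without a library. The share of all genes called under each alternative is not set beside these counts, so they show only how the calls moved. The cause of these changes was not tested.

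Values turned in sign for Il1b in macrophage-like cells (Tumor against Prepuberty, -0.338 with the replicate block and -3.52 to 1.39 without a library, the former without Tumor 1; Tumor against DCIS, -4.52 without Tumor 1 to 0.389 without Tumor 2), Il1a there (Tumor against Prepuberty, -5.03 without Tumor 1 to 0.237 without Tumor 2) and Il6 there (DCIS against Prepuberty, -1.73 to 1.92 without a library, the latter without Prepuberty 2). In fibroblast-like cells they turned for Il1rl1 (DCIS against Prepuberty, -0.0767 without DCIS 1 to 0.196 without DCIS 2) and Il33 (Tumor against Prepuberty, -2.27 without Tumor 1 to 0.537 without Tumor 2, 0.409 without integration, 0.334 without T-antigen cells and 0.62 with both), and in endothelial-like cells for Il6 (DCIS against Prepuberty, -0.0205 without Prepuberty 2 to 1.87 without Prepuberty 1). The difference of Il1rl1 between fibroblast-like and macrophage-like cells ran from -12.55 without DCIS 2 to 1.53 without Tumor 2, and was 4.44 without integration. Libraries of different states share only a number. Same-numbered libraries had correlated deviations in fibroblast-like cells (0.119 to 0.319). The highest correlation, 0.354, was that of Prepuberty and DCIS in endothelial-like cells, where the other pairs gave 0.045 and 0.031. Macrophage-like and epithelial-like cells also had at least 1 correlation below 0.1. With the replicate block, Tumor against DCIS had 5 members called in fibroblast-like cells, and Il6 passed in Tumor against Prepuberty (-2.13, adjusted p = 0.0185).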

Other observations

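Unnamed clusters rich in T-antigen cells held further Il1rn. In the cluster led by Acan, Npy and Wnt10a it was 32.1 CPM in Tumor 1 and 12.3 CPM in Tumor 2, and in the cluster led by Atp6v1c2, Mia and Aqp3 it was 31.1 and 17.7 CPM. Il1r1 in the same clusters was 19.3 and 19.97 CPM in Tumor 2. The former cluster had 279 CPM of Il33 in Prepuberty 2 and 925 CPM in DCIS 2, against 0.903 and 0.466 CPM in the tumors. Schwann-like cells had 24.1 to 55.7 CPM of Il18 over 4 libraries.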
